A study of Mus musculus with 21 samples.

Results

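The nuclear-encoded subunits of the mitochondrial respiratory chain were followed through sorted spleen cells of mice. Members were taken by symbol: names starting with Nduf and a letter a, b, c, s or v with a number for complex I, Sdha to Sdhd for complex II, Uqcr for complex III, Cox4 to Cox8 for complex IV and Atp5 for complex V, the ATP synthase. Of 14273 genes in the table, 81 matched: 37 for complex I, 4 for complex II, 8 for complex III, 15 for complex IV and 17 for complex V. A few matches are not subunits of the complex that their symbol names. Cox7a2l is a supercomplex assembly factor, Atp5s is a coupling factor of the ATP synthase, Atp5sl is linked to the assembly of complex I, and Ndufa4, counted here with complex I, is now placed in complex IV.

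The 21 libraries came from spleens of C57BL/6 mice in 7 groups of 3. Cells sorted as Ter119+CD71+, which are erythroid precursors by those antigens, were divided into CD45+ and CD45- fractions in tumor-bearing mice, in mice with anemia and in neonatal mice. The last group was MDSC, myeloid-derived suppressor cells sorted as CD11b+Gr1+ from tumor-bearing mice. The labels give neither the tumor, the cause of the anemia, the ages nor whether the libraries of a group came from separate animals, so the p-values rest on how far these libraries differ, which can be a technical spread. Levels are printed as 2 raised to the deposited log2 value, and the quantity behind the log is not given in the sources used here, so levels of different genes are not compared. Values summed to between 227942 and 349254 per library, and read depth is unknown.

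The respiratory chain passes electrons from NADH, through complex I, and from succinate, through complex II, to complexes III and IV, and the proton gradient built on the way drives the ATP synthase. Most subunits are encoded in the nucleus and a smaller set in mitochondrial DNA, and both sets must be assembled together. Erythroid precursors need mitochondria for haem synthesis and remove them as they mature into red cells, while neutrophils are known for a low dependence on respiration.

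The marker genes of the sorts set the frame for the CD45 comparison. All 8 erythroid markers, among them Klf1, Gata1, Epor and Alas2, were lower in CD45+ than in CD45- cells of each status at a limma adjusted p under 0.05, and their summed level was 141 to 1453 in CD45+, 2708 to 6579 in CD45- and 5.18 to 58.6 in MDSC libraries. All 10 neutrophil and MDSC markers were higher in CD45+ cells of each status, with sums of 528 to 29388 in CD45+, 9.54 to 372 in CD45- and 44715 to 69164 in MDSC libraries. Elane and Itgam were blank, taken as 0, in 1 anemia CD45- library each. The 6 B cell markers were higher in CD45+ cells of each status as well, at 117 to 869 against 2.22 to 11.1. CD45+ cells of mice with anemia had the lowest neutrophil sums of the CD45+ groups, 528 to 2826 against 9540 to 29388 in the other two, and the highest B cell sums, 718 to 869 against 117 to 498. Haemoglobin genes took 11.3% to 46.3% of the summed values in CD45- libraries, 1.29% to 14.9% in CD45+ and at most 0.487% in MDSC libraries. How far these differences in cell makeup enter the values of the respiratory chain was not tested, and in bulk samples fewer cells of a type and less RNA per cell cannot be told apart.

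The 81 members together took between 0.64% and 1.74% of the summed values of a library. Neonatal CD45+ cells had 1.34% ± 0.117 (SD, n = 3), tumor CD45+ cells 1.21% ± 0.25 and MDSC 1.13% ± 0.212. Tumor CD45- cells had 0.875% ± 0.24, neonatal CD45- cells 0.899% ± 0.14 and anemia CD45+ cells 0.967% ± 0.0998. The anemia CD45- libraries did not lie together, at 0.678%, 0.763% and 1.74%. With haemoglobin genes left out of the sum the order changed: the tumor CD45- share was 1.3% ± 0.111, next to 1.28% ± 0.272 in tumor CD45+ cells, and the neonatal fractions had 1.4% ± 0.334 and 1.42% ± 0.172. Anemia CD45- cells had 1.43% ± 0.462, and anemia CD45+ cells had the lowest group mean on that scale, 1.06% ± 0.144, and their libraries overlapped those of every other group except neonatal CD45+ cells.

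**Figure D1:**
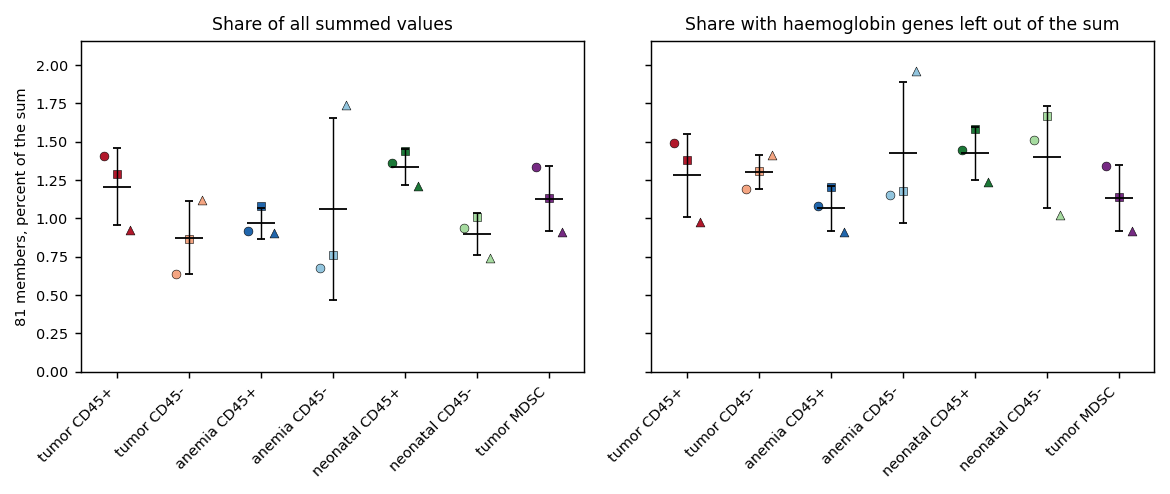
Share of the summed values taken by the 81 respiratory chain members in each library (points: circle, square and triangle for replicates 1, 2 and 3, bars: mean ± SD, n = 3), on the left in percent of all values and on the right in percent of the sum without haemoglobin genes. The CD45- groups lie lower on the left than on the right, and replicate 3 of anemia CD45- cells stands apart at 1.74%.

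Members were tested if 3 or more libraries had a value of 1 or above, which 77 did. Of these, 32 had their highest group mean in neonatal CD45+ cells, 19 in MDSC, 8 in anemia CD45-, 7 in neonatal CD45-, 6 and 4 in the CD45+ and CD45- cells of tumor-bearing mice and 1 in anemia CD45+ cells. The lowest group mean fell in anemia CD45+ cells for 32 members and in tumor CD45- cells for 29. Members tended to be high or low together within a library. The correlation of a member with the mean of the other members over the 21 libraries, on log2(value + 1), had a median of 0.71, as a description of libraries that share a normalization. It ran from -0.39 for Atp5s to 0.95, and 11 members stayed under 0.3, among them Cox6b2 at -0.24 and Ndufb9 at 0.14.

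The third library of a group often stood apart, in the members and in other values. Haemoglobin genes took their lowest share of the group in replicate 3 in all 7 groups, and the mitochondrial DNA-encoded genes their highest in the 6 Ter119+CD71+ groups, up to 2.11% in anemia CD45- cells. The erythroid marker sum was 2708 in anemia CD45- replicate 3 against 5879 and 5216 in the other two, and the tumor CD45+ replicate 3 held neutrophil and macrophage sums of 11219 and 1175, against 28220 and 249.4 in replicate 1 and 29388 and 234.8 in replicate 2. The part of these differences in the member values was not tested. In tumor CD45+ cells 65 of the 77 members had their lowest value in replicate 3, as had 58 in neonatal CD45- cells and 57 in MDSC. In anemia CD45- cells replicate 3 held the highest value for 70 members, and in tumor CD45- cells for 49. Other replicates also lay at the ends. Replicate 1 held the lowest value for 53 members in tumor CD45- and 52 in anemia CD45- cells, and the highest for 52 in tumor CD45+ cells. Replicate 2 held the highest for 51 in neonatal CD45- cells. The counts below are given with all libraries and, where they change by over 1.5 times, without the replicate 3 libraries. That choice was made from these values. In tumor-bearing mice and in anemia, leaving out replicate 3 therefore moves the members toward higher values in CD45+ cells by its selection.

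**Figure D2:**
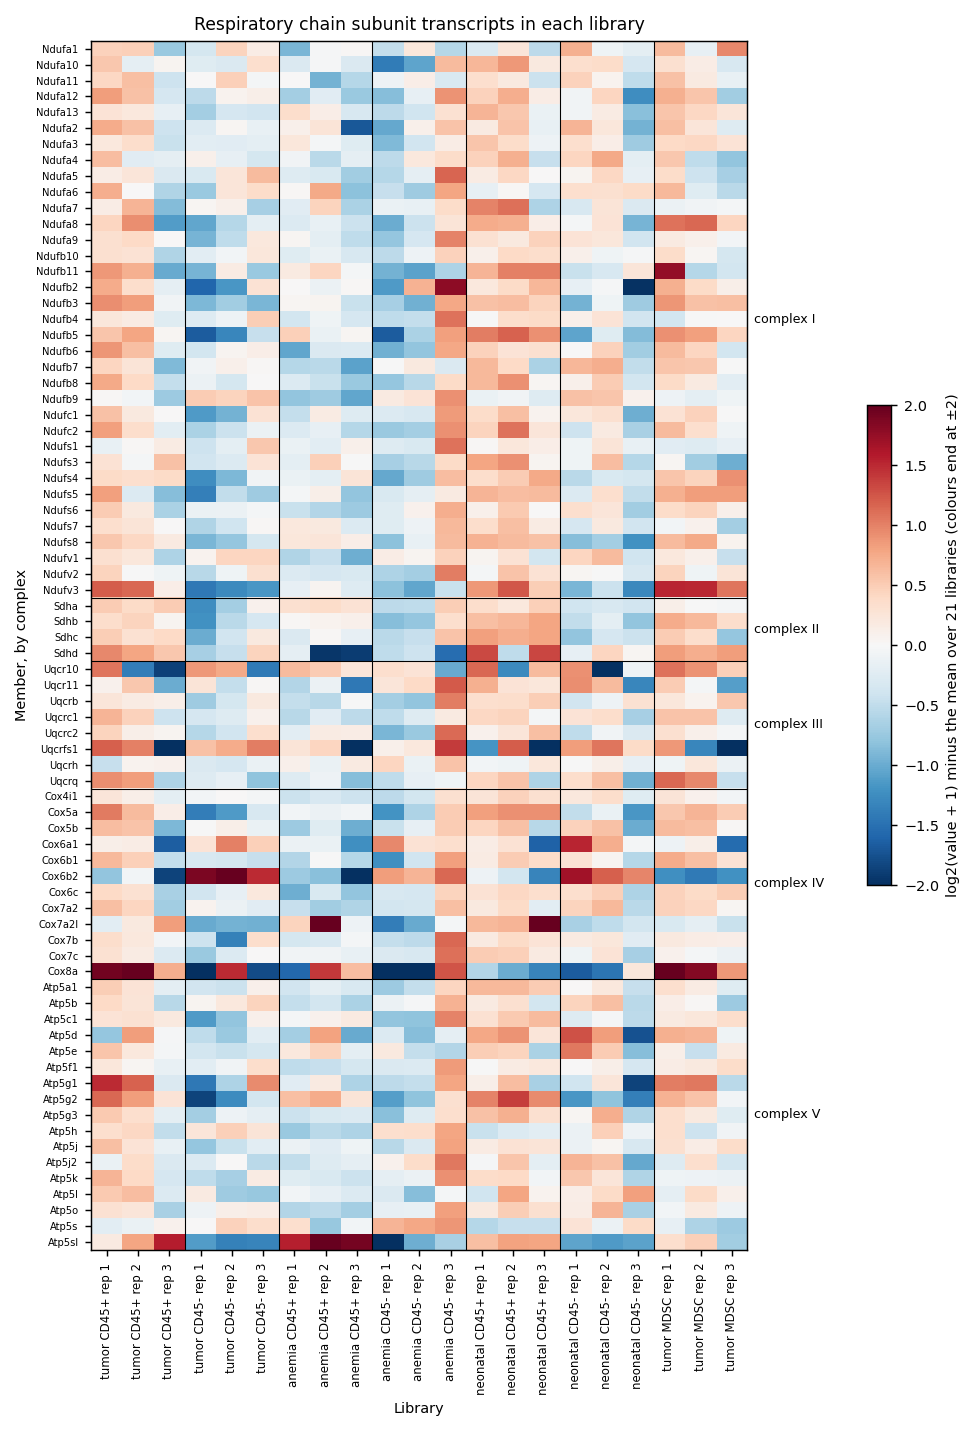
Level of 76 of the 77 tested members (rows, by complex) in each of the 21 libraries (columns, in groups of 3), as log2(value + 1) minus the member's mean over all libraries, with colours ending at 2 above or below it. Most members are red in replicate 3 of anemia CD45- cells, and Cox6b2 runs against its neighbours, red in every CD45- library.

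The first comparison was CD45+ against CD45- cells within each status, and it asks how respiratory chain transcripts differ between the CD45+ and CD45- fractions of the Ter119+CD71+ sort. Of 77 tested members, 13 rose and 2 fell from CD45- to CD45+ cells in tumor-bearing mice, where 61.1% of all 11192 tested genes passed the same threshold, 50.2% higher and 10.9% lower (limma on log2(value + 1), Benjamini-Hochberg adjusted p under 0.05). In mice with anemia 5 rose and 6 fell, against 58.7% of all genes, 47.4% higher and 11.3% lower. In neonatal mice 14 rose and 2 fell, against 59.9%, 49.6% higher and 10.3% lower. The share of members that passed was thus 19.5%, 14.3% and 20.8%, below that of all genes in each status. The median log2 fold change of the members was 0.43 in tumor-bearing mice, -0.18 in anemia and 0.37 in neonates, while that of all tested genes was 0.75, 0.68 and 0.75.

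The median shift of all genes bears on direction. Scaling libraries by median ratios took it to 0.05, 0.03 and 0.05, and with that scaling 3 members rose and 18 fell in tumor-bearing mice, 1 rose and 44 fell in anemia, and 4 rose and 20 fell in neonates. Over all genes the split moved from 5619 higher and 1218 lower to 3524 and 2895 in tumor-bearing mice, from 5309 and 1266 to 3252 and 2858 in anemia, and from 5552 and 1156 to 3289 and 2746 in neonates. By these counts the share of members that fell was near that of all genes in tumor-bearing mice and neonates, and above it in anemia. The share of members that rose lay below that of all genes in each status. Relative to the median gene, the members' median lay 0.32, 0.86 and 0.38 log2 units lower in CD45+ cells on the unscaled values. Leaving out the replicate 3 libraries raised the counts to 44 higher and 2 lower in tumor-bearing mice, with 71.2% of all genes called (58.7% higher, 12.5% lower). In anemia 20 were then higher and 8 lower, with 70.7% of all genes called (57.6% higher, 13.0% lower), so that most called members were higher. In neonates 20 were higher and 4 lower, with 66.9% of all genes called (54.9% higher, 12.0% lower).

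Across the 3 statuses the calls fell on 21 members, and those that rose in all 3 included Atp5g2 and Atp5sl. Cox6b2 was lower in all 3. Of 29 calls of a rise among the members reported singly, 17 held with any 1 of the 18 libraries left out, 8 under median-ratio scaling, 11 under quantile normalization and 24 with values rescaled to the sum without haemoglobin genes. All 10 calls of a fall held under each of those 3 scalings, and 6 held with any 1 library left out. Median-ratio scaling lowers the difference from CD45- to CD45+ cells of most genes, so it is a weaker check on falls than on rises. The calls that held under all of these were the rises of Ndufv3 and Atp5g2 in tumor-bearing and neonatal mice, of Ndufs8 in neonates and of Atp5sl in anemia, and the falls of Cox6b2 in all 3 statuses and of Ndufb9, Atp5h and Atp5s in anemia.

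**Figure D3:**
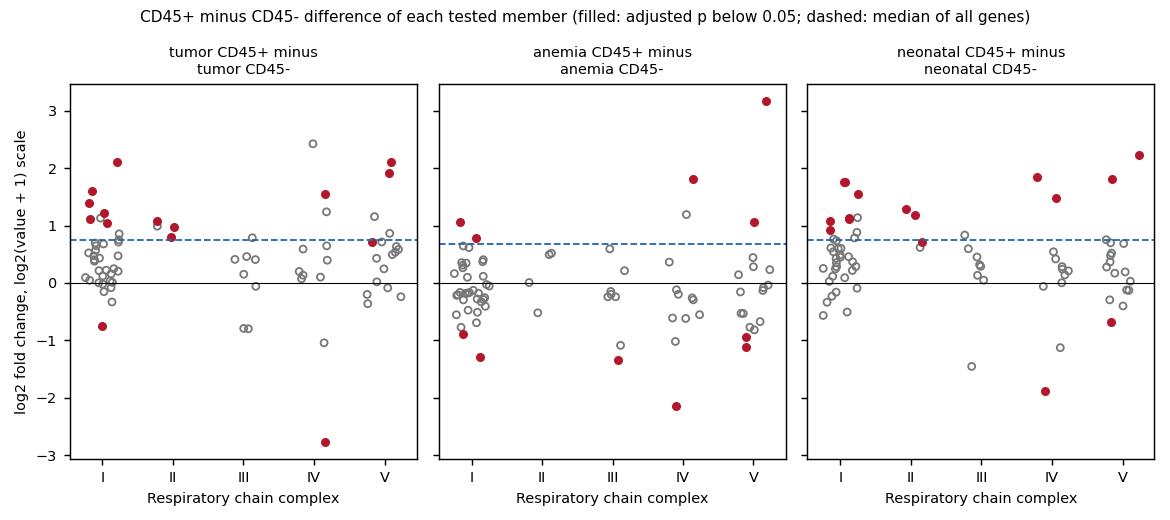
Log2 fold change (log2(value + 1) scale) from CD45- to CD45+ cells of each of the 77 tested members, by complex, in tumor-bearing mice, mice with anemia and neonates. Filled points have an adjusted p below 0.05, the dashed line is the median of all tested genes, and 56, 71 and 58 members lie under it, with Cox6b2 the lowest point of complex IV in all 3 panels.

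Complex I oxidizes NADH, and 36 of its 37 members were tested. The counts by complex, here and below, are to be read against the shares of all genes in tumor, anemia and neonates. Those were 50.2%, 47.4% and 49.6% higher and 10.9%, 11.3% and 10.3% lower. In tumor-bearing mice 6 were higher in CD45+ cells, among them Ndufv3, Ndufb5, Ndufb3, Ndufs4 and Ndufs8, and Ndufb9 was lower. In neonates 7 were higher, among them those 5 and Ndufb11, and in anemia 2 were higher, Ndufb11 among them, while Ndufb9 and Ndufv1 were lower. Members beyond the core list, the isoform sets and the largest changes are named here because they passed, after their values were seen.

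Ndufv3, an accessory subunit of the module that binds NADH, had the clearest rise in complex I. It stood at 39.6, 37.7 and 18.2 in the 3 tumor CD45+ libraries and at 5.54, 6.26 and 6.86 in the tumor CD45- libraries. In neonates it was 31.1, 40.7 and 23.6 against 8.28, 12 and 6.15. The fractions did not overlap in either status, and the log2 fold changes were 2.11 ± 0.3 (SE, adjusted p = 1.5e-05) and 1.75 ± 0.3 (adjusted p = 1.1e-04). In anemia the values were 14.7, 17.3 and 13.7 against 8.93, 7.57 and 11.9, a difference of 0.65 ± 0.3 that did not pass (adjusted p = 0.078). All 3 MDSC libraries held more than the highest CD45- library, at 49.6, 48.9 and 35.8.

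Ndufs8, a core subunit that carries iron-sulphur clusters, was 23.1, 22.1 and 21.4 in neonatal CD45+ and 7.26, 8.31 and 5.39 in neonatal CD45- cells, a rise of 1.56 ± 0.29 (SE, adjusted p = 2.3e-04).

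Ndufb9, an accessory subunit of the membrane arm, went the other way. It was 20, 21.1 and 16.6 in anemia CD45+ cells and 39.7, 42.5 and 67.4 in anemia CD45- cells, so that the fractions did not overlap, with a log2 fold change of -1.3 ± 0.25 (SE, adjusted p = 3.2e-04). In tumor-bearing mice it was 35.6, 33.9 and 20.9 against 50.1, 48.1 and 52.4. That difference of -0.75 ± 0.25 passed (adjusted p = 0.016) but not without replicate 3 of tumor CD45+ cells (-0.52, adjusted p = 0.093). Neonatal values were 31.9, 33.4 and 29.2 against 53.4, 52.1 and 37.4, again without overlap, at -0.57 ± 0.25 (adjusted p = 0.062). Ndufv1, which carries the NADH and flavin sites, fell in anemia by 0.9 ± 0.3 on the log2 scale (SE, adjusted p = 0.018). Its call was lost without replicate 3 of anemia CD45+ cells or of anemia CD45- cells (adjusted p of 0.053 and 0.075). The core subunits Ndufs1 and Ndufa9, the latter an accessory subunit counted in the core list used here, passed in none of the 3 statuses, with log2 fold changes of -0.26 to 0.12 and -0.18 to 0.65.

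Complex II is the only complex encoded entirely in the nucleus and doubles as the succinate dehydrogenase of the tricarboxylic acid cycle. Of its 4 members, 3 rose in tumor-bearing mice and the same 3, Sdha, Sdhb and Sdhc, rose in neonates, and none passed in anemia. With 50.2% and 49.6% of all genes higher in those 2 statuses, 3 of 4 does not set complex II apart. Its median log2 fold changes were 0.99, 0.25 and 0.95 in tumor, anemia and neonates, beside 0.75, 0.68 and 0.75 for all genes. Sdha, the flavoprotein subunit, was 47.8, 43.7 and 47.6 in tumor CD45+ cells and 13.5, 20.2 and 35.1 in tumor CD45- cells, a rise of 1.08 ± 0.3 (SE, adjusted p = 0.0051). Its neonatal rise of 0.71 ± 0.3 passed barely (adjusted p = 0.04997) and was lost with 14 of the 18 libraries when each was left out (adjusted p from 0.052 to 0.13). In anemia CD45- cells 2 libraries lay at 22.6 and 22.9 and replicate 3 at 46.8, and the CD45+ libraries at 41.8, 43.2 and 40.9 fell between them.

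Sdhb, the iron-sulphur subunit, was 38.3, 40.2 and 43.8 in neonatal CD45+ and 17.5, 21.6 and 14 in neonatal CD45- cells, a rise of 1.18 ± 0.3 (SE, adjusted p = 0.0027). In tumor-bearing mice it was 32.1, 34.3 and 25.9 against 10.2, 16.8 and 19.4, a rise of 0.98 ± 0.3 (adjusted p = 0.0092) that was lost without replicate 1 of tumor CD45- cells (0.73, adjusted p = 0.061). Sdhc, a membrane anchor, rose by 1.29 ± 0.31 in neonates (adjusted p = 0.0017). Its rise of 0.79 ± 0.31 in tumor-bearing mice (adjusted p = 0.034) was lost without any 1 of the tumor CD45+ libraries or of replicates 1 and 2 of tumor CD45- cells (0.49 to 0.84, adjusted p from 0.053 to 0.19). Under median-ratio scaling none of the 6 complex II calls passed, and Sdha in neonates and Sdhc in tumor-bearing mice changed sign, to -0.21 and -0.07.

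Complex III passes electrons from quinol to cytochrome c. Limma called 0 of its 8 members in tumor-bearing mice and 0 in neonates, where 0 had an unadjusted p under 0.05 in either and the fit without the trend and robust options also called 0 in both. In anemia only Uqcr11, a small accessory subunit, passed, at 22.3, 31 and 11.9 in CD45+ against 40.4, 45 and 80.7 in CD45- cells (-1.34 ± 0.51, SE, adjusted p = 0.034). That call was lost without replicate 1 or 3 of anemia CD45+ cells or replicate 3 of anemia CD45- cells (adjusted p from 0.055 to 0.15). Uqcrc1, a core subunit, had log2 fold changes of 0.41 ± 0.32, -0.24 ± 0.32 and 0.29 ± 0.32 (SE) in tumor, anemia and neonates. The Rieske iron-sulphur protein Uqcrfs1 had uneven libraries: tumor CD45+ cells held 49.3, 43.5 and 3.68 and neonatal CD45+ cells 8.67, 50 and 4.11.

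Complex IV, cytochrome c oxidase, has subunits with tissue-specific isoforms, and both isoforms of subunit 6b were measured here. Cox6b2, known as the testis isoform, was 37.6, 47.4 and 28.6 in tumor CD45- cells and 5.04, 9.07 and 1.91 in tumor CD45+ cells. In anemia it was 17.8, 15.8 and 22.1 in CD45- and 5.31, 4.86 and 1.31 in CD45+ cells, and in neonates 32.7, 23 and 19.5 against 8.8, 7.13 and 3.18. MDSC held 3.48, 2.94 and 3.54. Every CD45- library thus lay above every CD45+ and MDSC library. Cox6b2 fell from CD45- to CD45+ cells by 2.76 ± 0.45, 2.14 ± 0.45 and 1.88 ± 0.45 on the log2 scale in tumor, anemia and neonates (SE, limma adjusted p = 5.1e-05, 5.9e-04 and 0.0017). The calls held under every alternative run, and under median-ratio scaling the differences were -3.63, -2.9 and -2.72.

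Cox6b1, the widely expressed isoform, was 123, 109 and 55.7 in tumor CD45+ and 62.6, 61.2 and 56.2 in tumor CD45- cells, and 51.7, 77.9 and 52 against 32.8, 59.1 and 138 in anemia. Neonatal values were 87.7, 111 and 101 against 96, 81.2 and 52.5. The fractions overlapped in all 3 statuses, and the log2 fold changes of 0.59 ± 0.41, -0.12 ± 0.41 and 0.42 ± 0.41 (SE) did not pass (adjusted p = 0.22, 0.82 and 0.39). Whether the 2 isoforms differed from each other in their change was not tested.

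Cox5a, a nuclear-encoded subunit that sits beside the catalytic core, rose in 2 statuses. It was 89.3, 67.6 and 47.5 in tumor CD45+ against 15.9, 19.1 and 34.4 in tumor CD45- cells, and 76.7, 81.9 and 82.4 against 30.5, 39 and 18.6 in neonates. The rises of 1.55 ± 0.39 and 1.48 ± 0.39 (SE, adjusted p = 0.0024 and 0.0034) held with any 1 library left out and fell short under median-ratio scaling (0.59 and 0.55). Cox4i1, the usual form of subunit 4, was within 0.24 log2 units of no change in all 3 statuses, with an SE of 0.25. Cox7a2, the usual form of subunit 7a, had log2 fold changes of 0.2, -0.55 and -0.06, each with an SE of 0.37. Cox6a1, the usual form of subunit 6a, had log2 fold changes of -1.04, -1.02 and -1.13 that did not pass (SE 0.55, adjusted p = 0.11, 0.12 and 0.086).

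Isoforms with a narrow tissue range were at the edge of detection. Cox4i2 reached at most 0.885, Cox6a2 1.83, Cox7a1 1.53 and Ndufa4l2 0.279 in any library. They were blank, taken as 0, in 8, 11, 5 and 15 of the 21 libraries, and all 4 stayed outside the tests. Cox4i2 was blank in the 6 tumor and anemia CD45- libraries. It read 0.486 to 0.677 in tumor CD45+ cells and 0.623 to 0.885 in neonatal CD45+ cells. Cox7a2l, the supercomplex factor, was called higher in anemia and neonates, and both calls rested on single libraries. In tumor-bearing mice it was 18.9 ± 7.45 in CD45+ against 7.05 ± 0.169 in CD45- cells (SD, n = 3), without overlap. That rise of 1.24 ± 0.6 (SE) did not pass (limma adjusted p = 0.081). Replicate 2 of anemia CD45+ cells held 97.1 against 20.5 and 13.7 in the others, and replicate 3 of neonatal CD45+ cells 98.5 against 23.8 and 24.3. Without those libraries the log2 fold changes went from 1.81 and 1.84 to 0.98 and 1.18, with adjusted p of 0.12 and 0.098, and the anemia call was also lost without replicate 1 of anemia CD45- cells (adjusted p = 0.072).

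**Figure D4:**
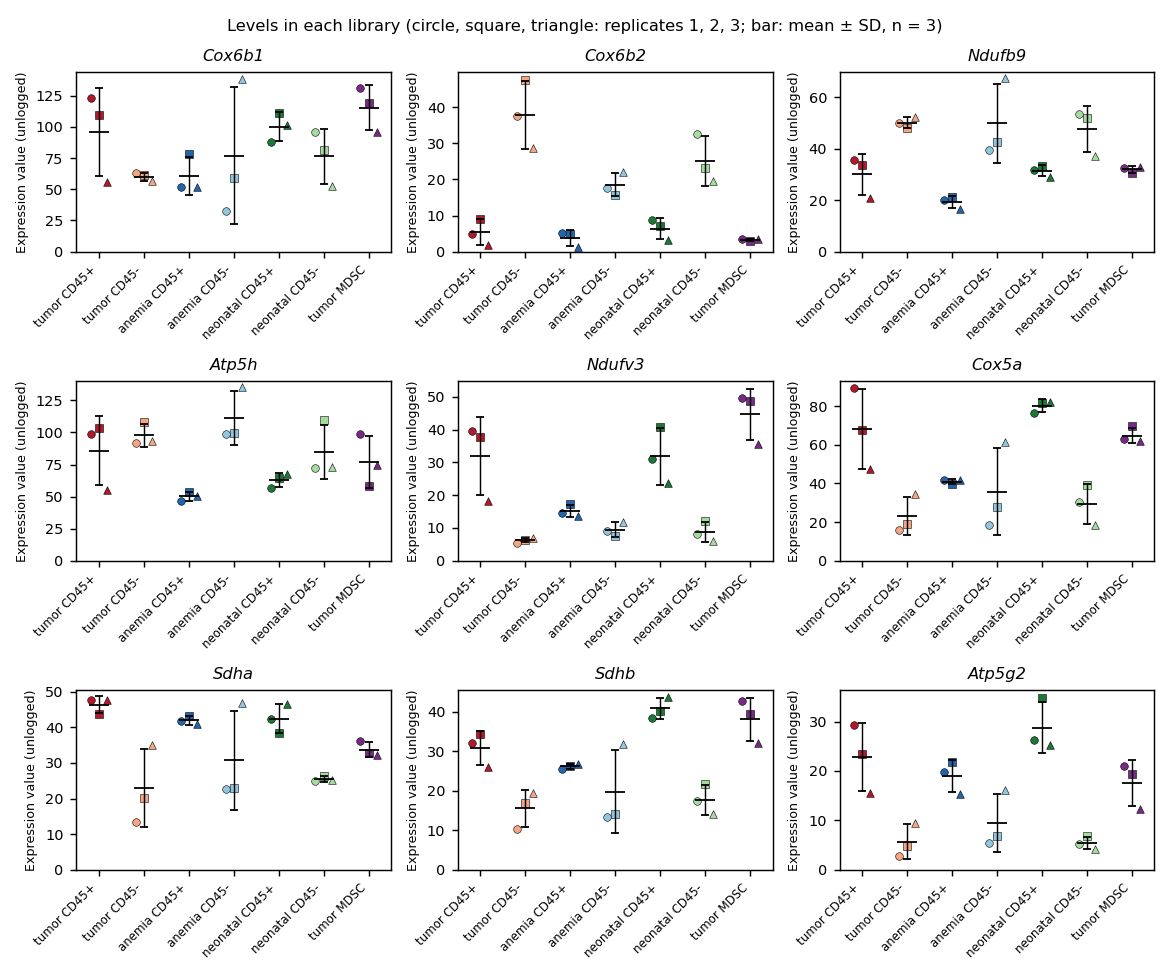
Unlogged expression values of Cox6b1, Cox6b2, Ndufb9, Atp5h, Ndufv3, Cox5a, Sdha, Sdhb and Atp5g2 in each library (points, with a circle, square and triangle for replicates 1, 2 and 3, and bars for the mean ± SD, n = 3). Cox6b2 lies at 15.8 to 47.4 in CD45- libraries and at 1.31 to 9.07 in all others, while Ndufv3 and Atp5g2 are lower in tumor and neonatal CD45- than in the matching CD45+ cells.

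Complex V makes ATP from the proton gradient. All 17 members were tested, and of those 3 were higher in CD45+ cells of tumor-bearing mice (Atp5sl, Atp5g2 and Atp5j), 2 higher and 2 lower in anemia (Atp5sl and Atp5g2, Atp5h and Atp5s), and 2 higher and 1 lower in neonates (Atp5g2 and Atp5sl, Atp5s). The rotor ring is built from subunit c, which Atp5g1, Atp5g2 and Atp5g3 all encode with the same mature protein. Atp5g2 was 29.4, 23.5 and 15.6 in tumor CD45+ against 2.78, 4.7 and 9.54 in tumor CD45- cells, and 26.3, 34.8 and 25.3 against 5.1, 6.8 and 4.28 in neonates. It rose by 1.92 ± 0.38, 1.06 ± 0.38 and 2.23 ± 0.38 log2 units in tumor, anemia and neonates (SE, adjusted p = 3.7e-04, 0.025 and 1.0e-04). The anemia call was lost without any 1 of replicates 1 and 2 of either anemia fraction (0.78 to 1.03, adjusted p from 0.06 to 0.13). Atp5g3 had 0.54, -0.08 and 0.48 (SE 0.34) and Atp5g1 1.16, -0.16 and 0.7 (SE 0.62), and neither passed. Reads from the 3 genes may be split between them by sequence shared in the coding part, and how the authors' counting treated such reads is not given in the sources used here.

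The catalytic subunit Atp5b had log2 fold changes of -0.2 ± 0.34 in tumor-bearing mice, -0.12 ± 0.34 in neonates and -0.67 ± 0.34 in anemia (SE, adjusted p = 0.63, 0.77 and 0.1). Atp5c1, the central shaft, had 0.86 ± 0.39, 0.28 ± 0.39 and 0.75 ± 0.39 (adjusted p = 0.065, 0.56 and 0.11). Atp5h, a subunit of the peripheral stalk, was 46.4, 53.6 and 50.4 in anemia CD45+ and 98.6, 99.2 and 136 in anemia CD45- cells. Its fall of 1.12 ± 0.26 log2 units (SE, adjusted p = 0.0015) held in every alternative. Tumor values were 98.5, 104 and 54.8 against 92.1, 108 and 93, which overlapped.

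Atp5sl was 4.18, 6.85 and 12.4 in tumor CD45+, 12.3, 22.6 and 16.2 in anemia CD45+ and 5.87, 6.93 and 6.87 in neonatal CD45+ libraries, and at most 1.91 in any CD45- library. It rose by 2.11 ± 0.35, 3.17 ± 0.35 and 1.81 ± 0.35 log2 units (SE, adjusted p = 6.8e-05, 8.4e-07 and 3.1e-04), and quantile normalization took the tumor and neonatal rises to 0.86 and 0.71, which did not pass. Atp5s fell in anemia by 0.94 ± 0.25 (adjusted p = 0.0044), at values of at most 4.51. Its neonatal fall of 0.68 ± 0.25 (adjusted p = 0.03) was lost without any 1 of the neonatal CD45+ libraries or of replicates 1 and 3 of neonatal CD45- cells (adjusted p from 0.055 to 0.095). Atp5j, a coupling factor of the stalk, rose by 0.71 ± 0.3 in tumor-bearing mice (adjusted p = 0.049), and the call was lost with 14 of the 18 libraries when each was left out (0.54 to 0.73, adjusted p from 0.052 to 0.18).

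The second comparison set the CD45+ cells of the 3 statuses against each other. Against neonatal CD45+ cells, anemia CD45+ cells had lower levels of 6 members, Sdhd, Cox6c, Ndufv3, Sdhc, Atp5a1 and Cox4i1, and a higher level of Atp5sl, where 20.3% of all genes were called, 9.08% higher and 11.3% lower. The median log2 fold change of the members was -0.56, against -0.03 for all genes, and 8 of 77 were positive. All 5 hepatocyte markers and 6 of 7 macrophage and monocyte markers were also lower in the anemia CD45+ cells. Their summed levels were 0.749 to 0.84 for hepatocyte markers, against 40.5 to 237 in neonatal CD45+ libraries, and 200.3 to 361 against 731 to 1242 for macrophage markers. Neutrophil sums were 528 to 2826 in anemia against 9540 to 11982 in neonatal CD45+ libraries, and B cell sums 718 to 869 against 117 to 343. The part of these differences in the result was not tested. None of the 7 calls held with every single library left out (adjusted p up to 0.155). Against anemia CD45+ cells, tumor CD45+ cells had a higher level of Sdhd alone, with 10.7% of all genes called, 5.81% higher, a median of 0.42 against -0.03 for all genes and 73 of 77 members positive. Both comparisons share the anemia CD45+ libraries. Between tumor and neonatal CD45+ cells limma called 0 of 77 members, with 6.61% of all genes called, 1 member (Cox8a) at an unadjusted p under 0.05 and 0 calls without the trend and robust options.

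Those counts moved with the replicate 3 libraries. Without them, 30 members were higher and 1 lower in tumor than in anemia CD45+ cells, where 33.0% of all genes were called (15.6% higher, 17.4% lower). In anemia against neonatal CD45+ cells 30 were lower and 1 higher, where 37.7% of all genes were called (20.0% lower, 17.7% higher). The member medians were then 0.55 and -0.59. Between tumor and neonatal CD45+ cells 1 member was then higher, with 19.0% of all genes called and 8.84% higher. Sdhd, the small membrane anchor of complex II, was 19.9, 5.17 and 5.38 in anemia CD45+ cells, 45.3, 40.1 and 33.3 in tumor CD45+ cells and 58.3, 15.7 and 59 in neonatal CD45+ cells. It did not overlap between tumor and anemia but did between neonates and anemia. The log2 fold changes were 2.1 ± 0.51 for tumor against anemia and -2.06 ± 0.51 for anemia against neonates (SE, adjusted p = 0.012 and 0.0082). The tumor call was lost without replicate 1 or 2 of tumor CD45+ cells or replicate 2 of anemia CD45+ cells (adjusted p from 0.051 to 0.073), and the neonatal call without replicate 1 of neonatal CD45+ cells (-1.75, adjusted p = 0.051).

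Cox4i1 and Atp5a1, subunits of the oxidase and of the catalytic head of the ATP synthase, had tight levels in these groups. Cox4i1 was 75, 80.3 and 75.9 in anemia CD45+ and 121, 139 and 127 in neonatal CD45+ cells, with no overlap (-0.73 ± 0.25, SE, adjusted p = 0.045). Atp5a1 was 91.7, 104 and 97.1 against 189.7, 189.5 and 170.6, also with no overlap (-0.9 ± 0.3, adjusted p = 0.042). The call for Cox4i1 was lost with 14 of the 18 libraries when each was left out and that for Atp5a1 with 9 (adjusted p up to 0.144 and 0.121). Tumor CD45+ cells fell between, with Cox4i1 at 119, 109 and 87.6 and Atp5a1 at 169, 146 and 105.

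Among CD45- cells, limma called 0 members for tumor against anemia, with 0.152% of all genes called and 2 members (Uqcrh and Cox6b2) at an unadjusted p under 0.05. It called 0 for tumor against neonates, with 2.54% of all genes and 1 member (Atp5l), and 0 for anemia against neonates, with 4.33% and 3 members (Ndufs8, Atp5l and Atp5s). Without the trend and robust options the 3 counts were also 0. The members' medians were -0.1, -0.16 and 0.01. Without the replicate 3 libraries 2 members were higher in tumor than in anemia CD45- cells, where 5.19% of all genes were called and 2.32% higher. In tumor against neonatal CD45- cells 14 were lower, where 14.0% of all genes were called and 10.5% lower. In anemia against neonatal CD45- cells 23 were lower, where 23.8% of all genes were called and 15.2% lower.

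**Figure D5:**
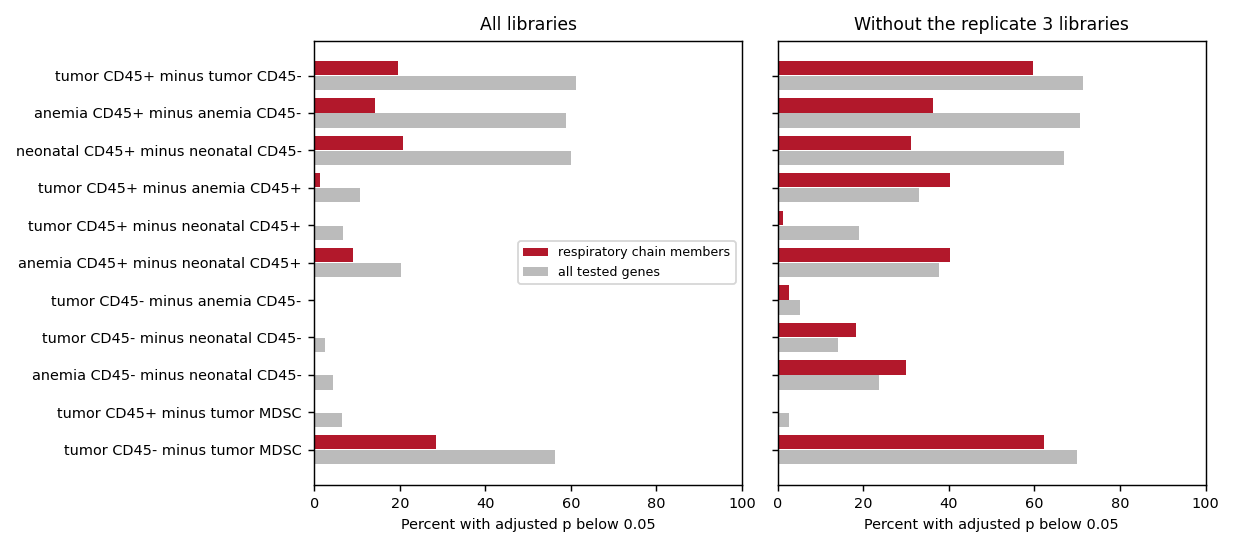
Percent of the respiratory chain members (red bars) and of all tested genes (grey bars) with an adjusted p below 0.05 in each comparison, with all libraries on the left and without the replicate 3 libraries on the right. With all libraries the members' bar is the shorter in each of the 3 CD45+ against CD45- comparisons (19.5%, 14.3% and 20.8%), and on the right the tumor bar reaches 59.7%.

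Whether the CD45 difference itself depended on status was tested as an interaction. No member passed for tumor against anemia, where 2.19% of all genes did, for tumor against neonates (1.08%) or for anemia against neonates (6.92%). At an unadjusted p under 0.05 there were 6, 0 and 8 members, and the limma fit without the trend and robust options also called 0 in each. The smallest adjusted p was 0.086, for Ndufv3 in tumor against anemia (1.47 ± 0.43, SE), and 0.087, for Ndufs8 in anemia against neonates (-1.24 ± 0.41). The lower count of rises in anemia was therefore not shown to differ from the other statuses for any single member. The members' median interaction was 0.58 for tumor against anemia, with 68 of 77 positive, beside 0.03 for all genes. It was -0.02 for tumor against neonates, with 37 positive (all genes 0.04), and -0.55 for anemia against neonates, with 9 positive (all genes -0.04). Without the replicate 3 libraries these medians were 0.53, 0.47 and -0.11. The members were not tested as a set. Without the replicate 3 libraries 11 members were higher and 1 lower for tumor against anemia, where 17.2% of all genes were called (9.6% higher, 7.56% lower). For tumor against neonates 3 were higher, where 6.88% of all genes were called and 4.53% higher. For anemia against neonates 0 were called by limma, where 16.8% of all genes were.

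The last comparison set the Ter119+CD71+ cells of tumor-bearing mice against MDSC of the same status. For CD45+ cells limma called 0 of 77 members, with 6.42% of all genes called, 2 members (Ndufs3 and Ndufs5) at an unadjusted p under 0.05, 0 without the trend and robust options and a median log2 fold change of 0.02 against 0.16 for all genes. CD45- cells had 19 members lower and 3 higher than MDSC, where 56.4% of 10251 tested genes were called (42.1% lower, 14.3% higher), and a median of -0.4 against -0.56 for all genes. With values rescaled to the sum without haemoglobin genes the split was 11 higher and 10 lower, and under median-ratio scaling 11 higher and 9 lower. Over all genes it moved from 1466 higher and 4314 lower to 2268 and 3133 and to 2725 and 3225.

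Of the 19 lower members, Cox5a, Ndufb3, Ndufb5, Ndufs4, Ndufs5, Ndufv3 and Sdhb kept their call under all 3 scalings and with any 1 of the 9 libraries left out. Ndufv3 was lower by 2.65 ± 0.3 log2 units (SE, adjusted p = 2.0e-05) and Ndufb5, an accessory subunit of the membrane arm, by 1.86 ± 0.33 (adjusted p = 6.0e-04). The 3 higher members were Cox6b2, Atp5s and Ndufb9. Cox6b2 was higher by 3.14 ± 0.39 (adjusted p = 4.7e-05), at 37.9 ± 9.41 in CD45- cells against 3.32 ± 0.327 in MDSC (SD, n = 3), and its call held under the 3 scalings and with any 1 library left out. Ndufb9 was higher by 0.63 ± 0.23 (adjusted p = 0.038), a call that was lost with 1 library left out for each of the 3 CD45- and 3 MDSC libraries. Without the replicate 3 libraries 46 members were lower and 2 higher, with 70.0% of all genes called (55.2% lower, 14.7% higher). For CD45+ cells against MDSC 0 members were called there by limma, with 2.66% of all genes.

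Genes that work beside the respiratory chain, with a few of its own genes that the symbol rule leaves out, were counted from lists in the CD45 comparison. The counts are to be read against the shares of all genes, 50.2%, 47.4% and 49.6% higher and 10.9%, 11.3% and 10.3% lower in tumor, anemia and neonates. Of 41 tested assembly factors of the complexes, 16 rose and 1 fell in tumor-bearing mice, 12 rose and 1 fell in anemia and 18 rose and 1 fell in neonates, with medians of 0.73, 0.54 and 0.74 beside 0.75, 0.68 and 0.75 for all genes. Under median-ratio scaling the counts were 2 and 4, 5 and 11, and 6 and 5 of 40. Of 16 genes for enzymes of the tricarboxylic acid cycle and of pyruvate dehydrogenase (Pdha1, Pdhb and Dlat), 6, 2 and 6 rose and none fell. Under median-ratio scaling 1, 0 and 1 rose and 5, 8 and 2 fell. A list of 8 genes, named electron carriers here, holds cytochrome c and other carriers. It also holds Cyc1 and Ndufab1, subunits of complexes III and I that the symbol rule leaves out. Of the 8 genes, 3, 2 and 3 rose and 0, 1 and 0 fell, and under that scaling 2, 1 and 3 rose and 4, 5 and 3 fell. Of 12 regulators of mitochondrial biogenesis 4, 6 and 4 rose and 1, 0 and 1 fell, against 3, 2 and 3 that rose and 5, 3 and 5 that fell under median-ratio scaling. The ATP synthase regulator and the carriers of adenine nucleotides and phosphate, 8 genes, had 5, 2 and 3 that rose and 2, 2 and 1 that fell, with medians of 1.09, -0.02 and 0.8, and 2, 1 and 2 that rose and 3, 4 and 3 that fell under that scaling. Of 9 genes of mitochondrial clearance 3, 3 and 3 rose and 6, 3 and 6 fell, and under that scaling 2, 1 and 0 rose and 6, 5 and 6 fell. The share that rose lay above that of all genes for the ATP synthase regulator and carriers in tumor-bearing mice. For the biogenesis regulators in anemia, 6 of 12 lay just above the 47.4% of all genes. In every other list and status the share that rose lay below that of all genes. The share that fell lay above that of all genes for the clearance genes in each status. Falls in the list of the ATP synthase regulator and carriers were 2, 2 and 1 of 8, and in the electron carriers in anemia 1 of 8. Counts as small as 1 of 8 do not set a list apart from all genes.

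Single genes of those lists stood out by size and kept their direction under every alternative run. All of their calls held too, except that of Slc25a4 in anemia without the replicate 1 libraries or without the replicate 2 libraries (1.47 and 1.63, adjusted p = 0.088 and 0.064). Esrra, a nuclear receptor that drives genes of oxidative metabolism, rose by 2.71 ± 0.22, 2.28 ± 0.22 and 2.27 ± 0.22 log2 units in tumor, anemia and neonates (SE, adjusted p = 1.7e-08, 1.5e-07 and 2.0e-07). Slc25a4, the adenine nucleotide carrier of the inner membrane, rose by 2.26 ± 0.49, 1.92 ± 0.49 and 2.31 ± 0.49 (adjusted p = 7.6e-04, 0.0028 and 6.6e-04). Atpif1, the inhibitor of the ATP synthase that erythroid cells need for haem synthesis, fell by 1.89 ± 0.33, 1.92 ± 0.33 and 1.44 ± 0.33 (adjusted p = 1.2e-04, 1.1e-04 and 0.0014). Bnip3l, the receptor that marks mitochondria for removal in maturing red cells, fell by 2.18 ± 0.31, 1.83 ± 0.31 and 2.53 ± 0.31 (adjusted p = 1.2e-05, 7.7e-05 and 2.9e-06). Bnip3l was 41.2 to 80.4 in CD45+ libraries apart from anemia replicate 3 at 34.1, 146 to 356 in CD45- libraries and 17.4 to 28.5 in MDSC. These genes were chosen after their values were seen.

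The partner subunits from mitochondrial DNA could not be read. Of 13 such genes 6 were in the table and 4 were tested, and limma called 0 of 4 in each of the 3 statuses, with 0 at an unadjusted p under 0.05. Without the trend and robust options it called mt-Nd5 in neonates (adjusted p = 0.045). Single libraries decided their values: mt-Cytb was 2535 in replicate 3 of neonatal CD45+ cells and under 0.001 or blank (taken as 0) in the others. The gene mt-Nd6 was blank in 8 libraries and reached 2504 in replicate 3 of anemia CD45- cells. Nuclear members were also uneven within groups. In 23 of 539 pairs of a member and a group the highest library was at least 5 times the lowest, and these pairs fell on 10 members, led by Cox8a (5 groups), Uqcr10 (4) and Uqcrfs1 (4). Cox8a was 1.02, 26.1 and 1.78 in tumor CD45- cells and 116, 33.3 and 16.6 in MDSC, so its log2 fold change of -2.95 ± 1.01 (SE, adjusted p = 0.033) between them rests on libraries that overlap, and the call was lost without replicate 1 of tumor CD45+ cells, replicate 1 or 3 of tumor CD45- cells or replicate 1 or 2 of MDSC (adjusted p from 0.053 to 0.1).

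Promoters of the members were searched for the letters of 3 motifs known from genes of oxidative phosphorylation, on both strands of windows of 250 bases before to 50 after the start. Of the 81 members 67 had a window in the RefSeq table of GRCm38.p6. The NRF1 core GCGCANGCG was found in 20 (29.9%), against 7.03% of all 27025 genes in the table, the ETS core CCGGAAG in 16 (23.9%, against 9.93%) and the YY1 core AANATGGCG in 11 (16.4%, against 2.76%). At least 1 of the 3 was in 39 members, 58.2% against 17.2% of all genes. Among the 15 members called higher in a CD45 comparison, 13 had a window and 8 of these a match, and among the 6 called lower, 5 had a window and 2 a match. A match is a run of letters, not a bound site.

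The 250 bases before the start are shown for 4 members as examples, 5′ to 3′ on the gene's strand, with matches in capitals. These 4 do not stand for the called members. Among those called higher, Ndufv3, Cox5a, Ndufb3, Ndufb5 and Cox7a2l had no match, while 8 had one. Among those called lower, Atp5h and Uqcr11 each held an NRF1 and an ETS match, and the others with a window had none. Whether matches go with direction was not tested. Sdha (chr13:74350241-74350490, minus strand), which rose in tumor-bearing mice, holds 3 NRF1 matches. Uqcr11 (chr10:80406822-80407071, minus strand), which fell in anemia, holds 1 ETS match, while its NRF1 match in the searched window runs across the start, past the end of the bases shown, and is not in capitals. Of the subunit 6b pair, Cox6b1 (chr7:30626115-30626364, minus strand), which passed in no CD45 comparison, holds 1 ETS match on the opposite strand. Cox6b2 (chr7:4753095-4753344, minus strand), which fell in all 3 statuses, holds none of the 3. Coordinates are those of GRCm38.p6, and all 4 sequences are from RefSeq.
Sdha: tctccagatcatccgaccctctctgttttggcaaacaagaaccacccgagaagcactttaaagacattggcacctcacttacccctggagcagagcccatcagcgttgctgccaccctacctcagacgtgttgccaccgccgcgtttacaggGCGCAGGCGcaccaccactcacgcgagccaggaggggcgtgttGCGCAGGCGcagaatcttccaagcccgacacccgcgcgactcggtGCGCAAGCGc
Uqcr11: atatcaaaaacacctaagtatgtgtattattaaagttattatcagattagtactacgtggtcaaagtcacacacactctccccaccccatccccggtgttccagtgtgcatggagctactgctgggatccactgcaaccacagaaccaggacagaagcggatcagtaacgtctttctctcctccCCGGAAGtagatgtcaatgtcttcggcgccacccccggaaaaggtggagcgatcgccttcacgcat
Cox6b1: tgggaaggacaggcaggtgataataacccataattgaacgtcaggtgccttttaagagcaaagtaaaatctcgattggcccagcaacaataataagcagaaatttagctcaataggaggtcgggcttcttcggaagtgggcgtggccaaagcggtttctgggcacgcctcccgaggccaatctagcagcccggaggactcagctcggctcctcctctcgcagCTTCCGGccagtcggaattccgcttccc
Cox6b2: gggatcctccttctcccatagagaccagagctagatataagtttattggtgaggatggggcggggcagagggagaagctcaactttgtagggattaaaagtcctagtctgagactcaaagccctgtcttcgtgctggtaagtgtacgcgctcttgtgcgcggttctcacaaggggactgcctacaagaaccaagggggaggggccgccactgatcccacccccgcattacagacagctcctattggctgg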

How the data were processed

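RNA of 21 sorted cell samples was sequenced after TruSeq RNA library preparation from total RNA, per the labels' protocols, and Bowtie 0.12.2 and the build mm8 are named in the submitters' processing notes. The authors deposited 1 table of log2 expression values for 14273 genes. The scale behind the log, the counting and its treatment of shared reads are not given in the sources used here. Read depth is unknown, so precision rests on the 3 libraries of a group. The extraction text of the labels speaks of retinas although the tissue is given as spleen.

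Blank cells (7.90%) were taken as 0, 8 repeated symbols were dropped, and 22 symbols had been turned into dates. Values were raised from log2, and log2(value + 1) of genes at 1 or above in 3 or more libraries was fitted with limma 3.58.1 (trend and robust options, statmod 1.5.0, R 4.3.3), so fold changes of low genes are understated. The 18 Ter119+CD71+ libraries shared 1 fit with 12 contrasts, and the 9 libraries of tumor-bearing mice another with 2. P-values were adjusted by Benjamini and Hochberg over all tested genes, with a threshold of 0.05 and no further scaling. The procedure was run on simulated data with independent noise for each gene and changes added to some genes in tumor CD45+ libraries. That simulation held no spread shared by the genes of a library and no shift over most genes. It therefore does not bear on the effects of scaling or of single libraries. Named genes were core subunits, isoform sets and the members with the largest called changes, and every other called member was added. The members and lists were chosen with earlier results of these data known. Alternatives were other pseudocounts and filters, 3 other scalings, other fits and left-out libraries. Results of single genes withheld from this text are not reported here, and counts over members and lists include them.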

Additional observations from a re-analysis of the deposited data

How the results depend on the processing

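Read depth is unknown, and each group holds 3 libraries, which limits precision. Scaling by median ratios gave 21 called members for CD45+ against CD45- cells in tumor-bearing mice (3 higher, 18 lower), 45 in anemia and 24 in neonates (4 higher, 20 lower), 20 for tumor CD45- cells against MDSC (11 higher, 9 lower), 1 for anemia against neonatal CD45- cells and 2 for the anemia against neonatal interaction. Quantile normalization gave 18 in anemia, 4 for tumor against anemia CD45+ cells and 2 for that interaction. Values rescaled without haemoglobin genes gave 17 in anemia, 2 for tumor against anemia CD45+ cells, and 2 between CD45+ cells of anemia and of neonates. The same values gave 21 when CD45- cells of tumor-bearing mice were set against MDSC (11 higher, 10 lower). A pseudocount of 10 gave 3 for tumor against anemia CD45+ cells and 2 for the anemia against neonatal interaction, and a pseudocount of 0.1 gave 3 for anemia against neonatal CD45+ cells. Without a filter on low values the counts were 2 for tumor against anemia CD45+ cells, and 1 each for the tumor against anemia interaction, for the anemia against neonatal interaction and for MDSC against the CD45+ fraction. All 21 libraries in 1 fit gave 2 for tumor against anemia CD45+ cells. Calls over all genes also moved under median-ratio scaling, as given above for the CD45 comparisons. The counts of this paragraph stand without the share of all genes in each setting, so they are not read as results about the members. The cause of the changes in the counts was not tested.

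With libraries left out, the number called ran from 4 to 46 for CD45+ against CD45- cells in tumor-bearing mice, 4 to 28 in anemia and 9 to 24 in neonates. It ran from 0 to 31 for tumor against anemia CD45+ cells, 0 to 1 for tumor against neonatal CD45+ cells and 0 to 31 for anemia against neonatal CD45+ cells. The 3 comparisons of CD45- cells ran from 0 to 2, 0 to 14 and 0 to 23, the 3 interactions from 0 to 12, 0 to 3 and 0 to 1, tumor CD45+ cells against MDSC from 0 to 1 and tumor CD45- cells against MDSC from 9 to 48. In anemia most called members were higher without replicate 3 of CD45- cells (20 called) or without all replicate 3 libraries (28 called). The shares of all genes moved too. Counts of 46, 28 and 24 were reached without the replicate 3 libraries, where 71.2%, 70.7% and 66.9% of all genes were called. The same holds for both counts of 31 between CD45+ cells, with 33.0% and 37.7% of all genes, and for the 48 against MDSC, with 70.0%.

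The labels do not say what a replicate number marks. Of 63 same-numbered pairs 35 had a correlation of deviations over 0.1, with a range of -0.17 to 0.41, so the numbers were not used as pairs, although 12 of 21 libraries correlated best with their own number, a hint from the data. With the replicate block the number called for tumor against anemia CD45+ cells was 3.

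Under median-ratio scaling the log2 fold change from CD45- to CD45+ cells was -0.25 for Atp5j and -0.068 for Sdhc in tumor-bearing mice and -0.21 for Sdha in neonates, and quantile normalization gave -0.14 for Sdhc in tumor-bearing mice. Of 2657 alternative values of named genes, 2275 kept direction and side of the threshold, 378 lost the call and 4 changed sign. With haemoglobin genes left out of the sum, complex I took 0.361% in tumor CD45- and 0.387% in neonatal CD45- cells. Complex II took 0.052% in the CD45+ fraction of tumor-bearing mice, 0.0398% in that of anemia and 0.0356% in neonatal CD45- cells. Complex III took 0.127% in CD45- cells of tumor-bearing mice, 0.106% in CD45+ cells of anemia, and 0.126% and 0.135% in the CD45+ and CD45- cells of neonates. Complex IV took 0.312% in tumor CD45-, 0.328% in neonatal CD45+ and 0.339% in neonatal CD45- cells, and complex V 0.471% in the first of these, 0.504% in the last and 0.367% in CD45+ cells of anemia.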
